A study of Mus musculus with 10 samples.

Results

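The 9 genes described here encode the sodium-glucose cotransporters Slc5a1, Slc5a2, Slc5a10 and Slc5a11, the facilitative sugar carriers Slc2a1, Slc2a2, Slc2a5 and Slc2a9, and Pdzk1ip1, a small membrane protein that binds the Slc5a2 product. They were chosen by name as the sugar carriers of the proximal tubule, with earlier results of these data known. All 9 of them were found among the 13837 genes with values. Their mRNA was measured in whole kidneys of mice aged 3 months, 5 Rragc+/+ (+/+) and 5 Rragc S74N/+ (KI/+), with 1 library per mouse. KI/+ mice carry 1 endogenous Rragc allele with the S74N change, constitutively and in the whole body, and 1 unchanged allele. Rragc encodes RagC, a GTPase that brings nutrient signals to the kinase complex mTORC1 at the lysosome. Both genotypes were on a C57BL/6 background and standard chow, and the labels give no sex. The question was whether carriers of the early proximal tubule differed between genotypes in the way that carriers of the late proximal tubule did.

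The kidney filters glucose freely, and the proximal tubule takes almost all of it back. In the early segments Slc5a2 (SGLT2), a carrier of high capacity in the brush border, brings glucose in with sodium, and Slc2a2 (GLUT2) lets it leave through the basolateral side. In the late, straight segment Slc5a1 (SGLT1) scavenges the glucose that is left, while Slc2a5 (GLUT5) carries fructose and Slc2a1 (GLUT1) is a basolateral glucose carrier that other nephron segments and vessels also express. Pdzk1ip1 (MAP17) is the partner that SGLT2 needs for full transport activity.

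In KI/+ kidneys the early pair of carriers was lower: Slc5a2 fell to 52.9% and Slc2a2 to 81.1% of the +/+ mean, and Pdzk1ip1 fell to 71.4%. Of the late carriers, Slc2a5 rose to 128% of the +/+ mean, and Slc5a1 and Slc2a1 did not pass the test. The test was limma's moderated test on log2(normalized count + 1), fitted to the 13197 genes that reached 10 normalized counts in 5 or more mice, at an adjusted p of 0.05. All 9 genes met that minimum, and 4 of them passed, 3 lower and 1 higher. Over all genes tested 3.69% passed, 2.02% lower and 1.67% higher. Because the 9 genes were chosen with earlier results known, their share was not tested against this one. The median log2 fold change of the 9 genes was -0.09, against 0.00046 over all genes tested. A normalized count is the number of reads on a gene divided by the size factor of the library, so that libraries of different depth can be compared. In whole tissue, fewer cells of a type and less RNA per cell cannot be told apart.

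**Figure D1:**
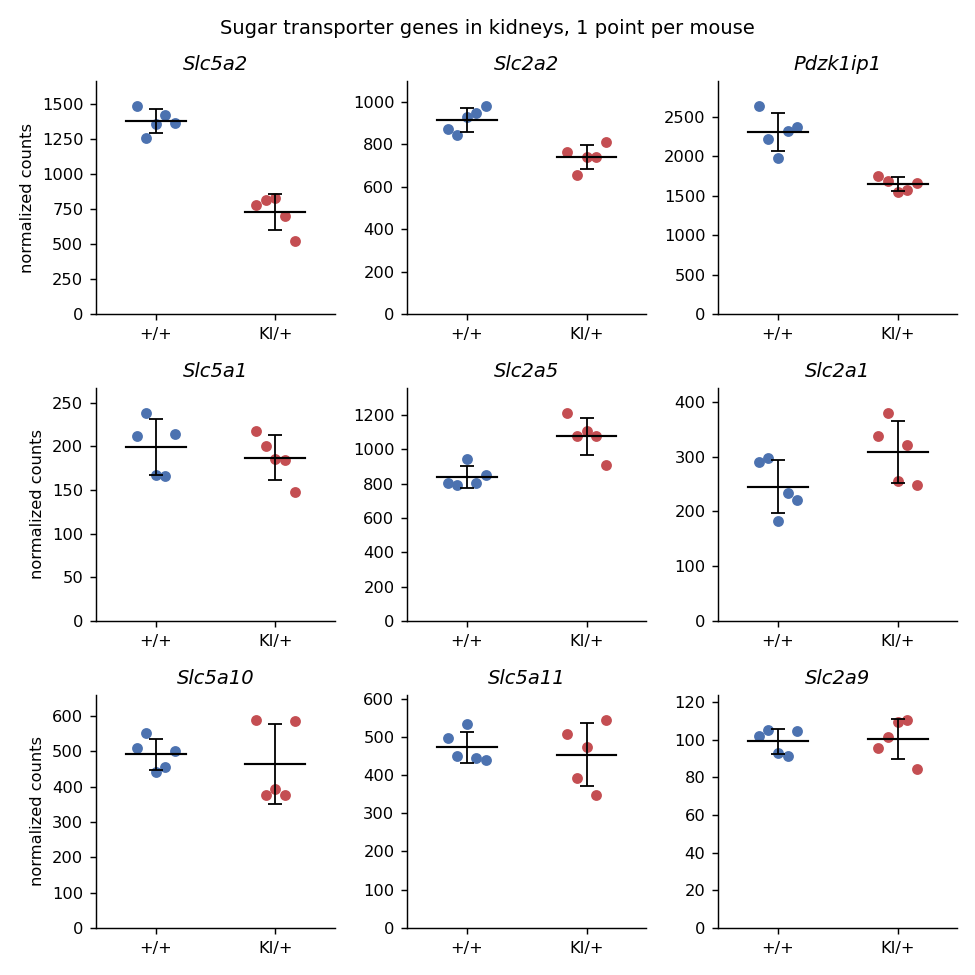
Normalized counts (y axis, from 0) of the 9 genes in 5 +/+ and 5 KI/+ kidneys (x axis), 1 point per mouse, with the mean as a horizontal line and error bars of 1 SD. The genotypes are apart for Slc5a2, Slc2a2 and Pdzk1ip1, and the KI/+ points of Slc2a5 lie higher with an overlap of 1 mouse on either side.

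Libraries held 6501552 to 7856363 reads on genes in +/+ and 6872310 to 7996087 in KI/+, so that a mean near 100 normalized counts, the level of Slc2a9, rests on about that many reads. The labels name the mice by library codes that fall into 2 runs, and what separates the runs is not stated: the first holds 2 +/+ and 1 KI/+ mice, the second 3 +/+ and 4 KI/+ mice. Defining genes of the proximal tubule (Lrp2, Cubn and others, 9 in all) were abundant in every library, with a summed level of 36902 to 38257 in +/+ and 39349 to 44521 in KI/+. Y-linked genes were read in all 10 libraries at similar levels, with a sum of 658 to 838 normalized counts. Rragc itself stood at 347, 247, 244, 293 and 297 normalized counts in +/+ and 199, 248, 214, 229 and 189 in KI/+, a log2 fold change of -0.40 that did not pass (limma, adjusted p = 0.0678), and a count of this kind does not tell the S74N allele from the other. KI/+ replicates 1 and 5 stood apart by Cfd and Fabp4, the 2 of 5 listed adipocyte genes that had values (Adipoq, Plin1 and Ucp1 were not analysed here). Their sum was 1411 and 4375 normalized counts in these mice, 94.6 to 203 in the other KI/+ mice and 183 to 259 in +/+. Cfd was at 0 in KI/+ replicate 3. Without replicates 1 and 5 the same 4 of the 9 genes passed.

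Windows of the genome just before the transcription start are shown for 3 of the genes that differed and for Slc5a1, the late counterpart of Slc5a2, because it is here that kidney factors and the E-box factors downstream of RagC could bind. They are 250 bases from RefSeq on GRCm38.p6, an older build than the GRCm39 used for the reads, all on the plus strand. RefSeq windows were matched by symbol for 8 of the 9 genes, all but Slc5a2. Slc2a2 is at chr3:28697653-28697902, Pdzk1ip1 at chr4:115088458-115088707, Slc2a5 at chr4:150119094-150119343 and Slc5a1 at chr5:33103969-33104218. Capitals mark CACGTG, an E-box of the kind that Tfeb and its relatives bind.
Slc2a2: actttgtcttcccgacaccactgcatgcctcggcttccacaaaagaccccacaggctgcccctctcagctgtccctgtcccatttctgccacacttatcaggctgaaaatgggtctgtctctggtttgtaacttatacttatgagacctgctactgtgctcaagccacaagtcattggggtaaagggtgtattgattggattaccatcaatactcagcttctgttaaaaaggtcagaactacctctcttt
Pdzk1ip1: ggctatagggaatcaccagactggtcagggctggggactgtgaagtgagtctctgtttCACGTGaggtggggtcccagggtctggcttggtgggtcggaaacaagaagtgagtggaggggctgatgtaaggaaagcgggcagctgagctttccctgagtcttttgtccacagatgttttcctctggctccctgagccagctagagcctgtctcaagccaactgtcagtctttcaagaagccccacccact
Slc2a5: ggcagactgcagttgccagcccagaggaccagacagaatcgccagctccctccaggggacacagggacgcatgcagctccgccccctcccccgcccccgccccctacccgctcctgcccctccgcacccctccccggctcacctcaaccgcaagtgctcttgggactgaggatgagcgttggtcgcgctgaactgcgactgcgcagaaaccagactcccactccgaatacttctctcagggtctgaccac
Slc5a1: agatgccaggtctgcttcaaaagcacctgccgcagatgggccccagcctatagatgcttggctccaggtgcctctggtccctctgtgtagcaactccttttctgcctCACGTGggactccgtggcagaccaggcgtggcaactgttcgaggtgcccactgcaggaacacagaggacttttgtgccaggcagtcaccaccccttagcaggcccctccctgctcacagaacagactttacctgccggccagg

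CACGTG lay 192 bases before the start of Pdzk1ip1, which fell, and 143 bases before the start of Slc5a1, which did not pass. It was in neither the Slc2a2 nor the Slc2a5 window. The windows of Slc2a1, Slc2a9, Slc5a10 and Slc5a11 also lacked it. It is present in 7.15% of all 32851 windows, which run from 250 bases before to 50 bases after a start. A short core of the HNF1 site, written GTTAAT or ATTAAC, is in 7.10% of windows and here lay in that of Slc5a10, 75 bases before the start. A short core of the MAF site, TGCTGA or TCAGCA, is in 19.5% of windows and lay in those of Slc5a11, 23 bases before the start, and Slc5a10, 223 bases before it and 15 bases after it. Slc5a10 has 2 listed starts, and all its matches were in the window of the upstream one. The motifs do not share their letters. They were chosen after values had been seen, and a match is a run of letters and not a binding site.

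Slc5a2 had the largest difference of the 9 genes. Its normalized counts were 1488, 1262, 1361, 1421 and 1370 in +/+ kidneys, replicates 1 to 5, and 780, 815, 834, 704 and 522 in KI/+ kidneys. Every KI/+ mouse was below every +/+ mouse, and the lowest value was that of KI/+ replicate 5. The means were 1380 ± 83.3 (SD, n = 5) in +/+ and 731 ± 127 (SD, n = 5) in KI/+. The log2 fold change was -0.93 (SE 0.11, 95% interval -1.17 to -0.70, limma, adjusted p = 4.64e-05). Slc5a2 passed whichever of the 10 mice was left out, with log2 fold changes between -0.99 and -0.82, and stood at -0.97 within the second run of library codes (limma, adjusted p = 0.00224).

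Pdzk1ip1, the partner of SGLT2, was the most abundant of the 9 mRNAs in both genotypes. Its normalized counts were 2634, 2216, 1983, 2314 and 2373 in +/+ and 1753, 1689, 1548, 1568 and 1667 in KI/+. The genotypes did not overlap, the nearest values being 1983 in +/+ replicate 3 and 1753 in KI/+ replicate 1. The means were 2304 ± 237 and 1645 ± 85.8 (SD, n = 5 each), a log2 fold change of -0.48 (SE 0.083, 95% interval -0.66 to -0.31, limma, adjusted p = 0.00184). It also passed without any 1 of the mice, between -0.53 and -0.43, and within the second run of library codes, at -0.46 (limma, adjusted p = 0.0160).

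Slc2a2, the basolateral exit for glucose in the early tubule, was lower by less. Its normalized counts were 873, 845, 929, 950 and 981 in +/+ and 765, 658, 739, 740 and 812 in KI/+. The highest KI/+ mouse, replicate 5, was below the lowest +/+ mouse, replicate 2. The means were 915 ± 55.9 and 743 ± 56.1 (SD, n = 5 each), a log2 fold change of -0.30 (SE 0.081, 95% interval -0.47 to -0.13, limma, adjusted p = 0.0471). This call was at the edge of the threshold: it was lost without any 1 of +/+ replicates 1, 3, 4 or 5 or KI/+ replicates 1, 2, 3 or 4 (adjusted p 0.0543 to 0.147) and in the second run of library codes, where the log2 fold change was -0.37 (adjusted p = 0.0530). The log2 fold change stayed between -0.34 and -0.26 whichever mouse was left out. With Slc5a2 and Pdzk1ip1, this made 3 of the 9 genes whose values did not overlap between genotypes, where 5% of all genes tested did not.

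Slc2a5, the fructose carrier of the late brush border, was the member that rose. Its normalized counts were 806, 793, 946, 805 and 852 in +/+ and 1212, 1075, 1106, 1079 and 911 in KI/+. The genotypes overlapped by KI/+ replicate 5, at 911, and +/+ replicate 3, at 946. The means were 840 ± 63.0 and 1077 ± 108 (SD, n = 5 each), a log2 fold change of 0.35 (SE 0.088, 95% interval 0.17 to 0.54, limma, adjusted p = 0.0304). This call too was lost without any 1 of +/+ replicates 1, 2, 4 or 5 or KI/+ replicates 1, 2, 3 or 4 (adjusted p 0.0553 to 0.0896) and in the second run of library codes, where the log2 fold change was 0.26 (adjusted p = 0.199).

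Slc5a1, the glucose scavenger of the late tubule, had normalized counts of 212, 238, 167, 166 and 215 in +/+ and 217, 201, 185, 185 and 148 in KI/+. The genotypes overlapped almost wholly. The log2 fold change was -0.09 and its 95% interval, -0.36 to 0.18, covers changes in both directions (limma, adjusted p = 0.817). Slc2a1 had normalized counts of 290, 297, 183, 234 and 221 in +/+ and 338, 380, 255, 321 and 248 in KI/+. Only KI/+ replicates 1, 2 and 4 were above every +/+ mouse. Its log2 fold change of 0.34 was close in size to that of Slc2a5, with a wider 95% interval of 0.03 to 0.64, and it did not pass (limma, adjusted p = 0.262).

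**Figure D2:**
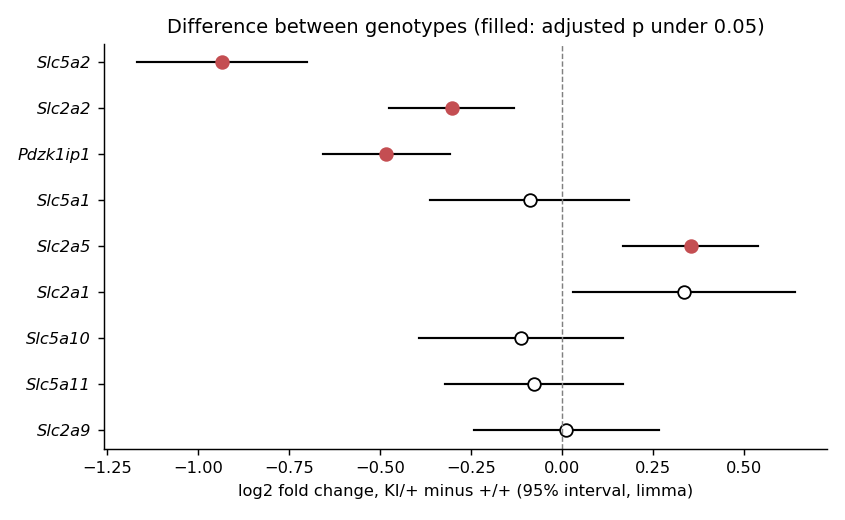
Log2 fold change, KI/+ minus +/+ (x axis), of each of the 9 genes (y axis) from limma, with 95% intervals as lines, filled points for an adjusted p under 0.05 and a dashed line at no difference. Slc5a2, at -0.93, is the farthest from 0, and the intervals of Slc5a1, Slc5a10, Slc5a11 and Slc2a9 span 0.

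The early carrier can also be set against the late one within each mouse, which removes the depth of the library. The ratio of Slc5a2 to Slc5a1 was 7.03, 5.29, 8.16, 8.55 and 6.38 in +/+ and 3.59, 4.06, 4.51, 3.81 and 3.53 in KI/+. Each KI/+ mouse was below each +/+ mouse, with means of 7.08 ± 1.33 and 3.90 ± 0.401 (SD, n = 5 each). On the log2 scale the difference of Slc5a2 from Slc5a1 changed by -0.85 in KI/+, and the mean of Slc5a2 and Slc2a2 minus the mean of Slc5a1, Slc2a1 and Slc2a5 was 1.43 to 1.88 in +/+ and 0.75 to 1.07 in KI/+, a change of -0.82. These are descriptions with no test, since the members of each group were set with earlier results known. Leaving out 1 mouse kept the first between -0.95 and -0.77 and the second between -0.89 and -0.78.

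**Figure D3:**
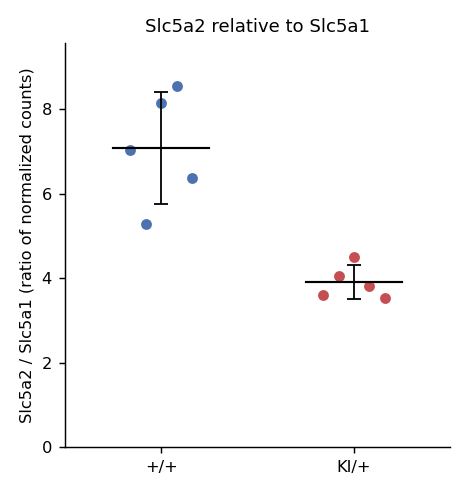
Ratio of the normalized counts of Slc5a2 to those of Slc5a1 (y axis, from 0) in each +/+ and KI/+ mouse (x axis), 1 point per mouse, with the mean as a line and error bars of 1 SD. The KI/+ ratios, 3.53 to 4.51, lie below the +/+ ratios, 5.29 to 8.55.

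Slc5a10, Slc5a11 and Slc2a9, carriers of other sugars and of urate, did not pass. Slc5a10 (SGLT5), a mannose and fructose carrier of the kidney, had normalized counts of 510, 551, 441, 457 and 501 in +/+ and 590, 375, 394, 377 and 585 in KI/+. The KI/+ mice fell on either side of all +/+ mice: replicates 1 and 5 were above them and replicates 2, 3 and 4 below. The log2 fold change was -0.11 (95% interval -0.39 to 0.17, limma, adjusted p = 0.764). The 2 mice with high Slc5a10 were those with high Fabp4, at 604 and 871 normalized counts against 94.6 to 196 in the other KI/+ mice and 179 to 217 in +/+, and the part of adipose tissue in this result was not tested. Without these 2 mice the log2 fold change of Slc5a10 was -0.36 and did not pass (limma, adjusted p = 0.0783).

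Slc5a11 (SGLT6, also SMIT2), which carries myo-inositol as well as glucose, had normalized counts of 497, 450, 533, 445 and 440 in +/+ and 508, 392, 474, 348 and 545 in KI/+. Among the KI/+ mice replicates 1 and 5 were again the highest, but they lay within or just above the +/+ range. Its log2 fold change was -0.08 (95% interval -0.32 to 0.17, limma, adjusted p = 0.827), and without these mice it was -0.23 (adjusted p = 0.448). Slc2a9 (GLUT9), which moves urate, was the least abundant of the 9 mRNAs, with normalized counts of 102, 105, 93.0, 91.1 and 105 in +/+ and 95.8, 101, 109, 111 and 84.7 in KI/+. The genotypes overlapped throughout, with a log2 fold change of 0.01 (95% interval -0.24 to 0.27, limma, adjusted p = 0.979).

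**Figure D4:**
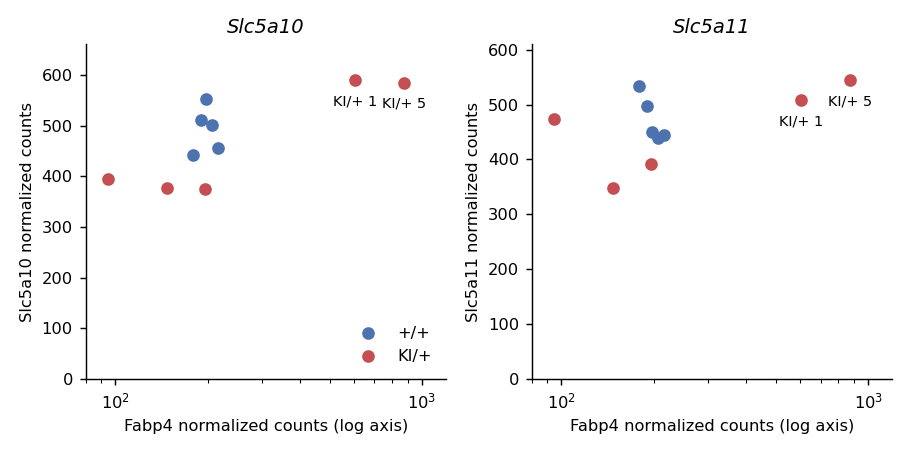
Normalized counts of Slc5a10 and Slc5a11 (y axes, from 0) against those of Fabp4 (x axis, log scale), 1 point per mouse, +/+ in blue and KI/+ in red. KI/+ replicates 1 and 5, at 604 and 871 Fabp4 normalized counts, hold the 2 highest Slc5a10 values.

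The order of the 9 mRNAs also differed between genotypes. Reads were taken from the 3′ end of each transcript, so that a level does not grow with transcript length and levels can be set side by side between genes, apart from differences in priming. In +/+ kidneys the order of mean normalized counts was Pdzk1ip1, Slc5a2, Slc2a2, Slc2a5, Slc5a10, Slc5a11, Slc2a1, Slc5a1 and Slc2a9. In this order the values of Slc2a2 and Slc2a5, of Slc5a10 and Slc5a11, and of Slc2a1 and Slc5a1 overlapped, and those of the other neighbours did not. By mean in KI/+ kidneys, Slc2a5 stood at rank 2 in place of Slc5a2, which stood at rank 4 behind Slc2a2. There the ranges over mice of Slc2a2 and Slc5a2, of Slc5a2 and Slc5a10, of Slc5a10 and Slc5a11, and of Slc5a11 and Slc2a1 overlapped, and those of the other neighbours did not. Within each of the 5 KI/+ mice Slc5a11 was nonetheless above Slc2a1. Slc5a2 was above Slc2a2 in KI/+ replicates 1, 2 and 3 and below it in replicates 4 and 5. The KI/+ medians were 780 for Slc5a2 and 740 for Slc2a2, the other way from the means.

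Other genes of early and late segments were read from lists of known markers. Of 9 early markers tested, 7 fell and none rose, with a median log2 fold change of -0.81. The 7 were Slc34a3 at -2.95, the phosphate carrier of the early brush border, Slc6a19 at -1.21, a neutral amino acid carrier, Slc7a8 at -1.02 and Slc7a7 at -0.81, basolateral amino acid exchangers, Slc5a12 at -0.95, a lactate carrier, Gatm at -0.74, which makes the precursor of creatine, and Prodh2 at -0.43, which degrades hydroxyproline. The 2 that did not pass were the most abundant, Slc34a1, the main phosphate carrier, at 0.08 (adjusted p = 0.754) and Slc4a4, the basolateral bicarbonate carrier, at 0.26 (adjusted p = 0.237). With these 2 in it, the summed level of the list was 35727 to 38840 in +/+ and 35604 to 41742 in KI/+, and no early marker was at 0. Slc5a2, at -0.93, and Slc2a2, at -0.30, lay within the range of the 9 early markers, which ran from -2.95 to 0.26. Slc2a2 was nearer to 0 than each of the 7 that fell.

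Of 11 late markers tested, Slc6a18 rose, at 0.40 (limma, adjusted p = 0.00704), and none fell, with a median log2 fold change of 0.12. Slc6a18 is a neutral amino acid carrier of the late brush border. The most abundant late markers, Slc7a13 and Atp11a, stood at 0.09 and 0.19 and did not pass (adjusted p = 0.837 and 0.523). The summed level of the late list was 20699 to 25342 in +/+ and 17853 to 27702 in KI/+, so that the genotypes overlapped. The late carriers Slc5a1, at -0.09, and Slc2a5, at 0.35, lay within the range of these markers, which ran from -0.22 to 0.40.

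**Figure D5:**
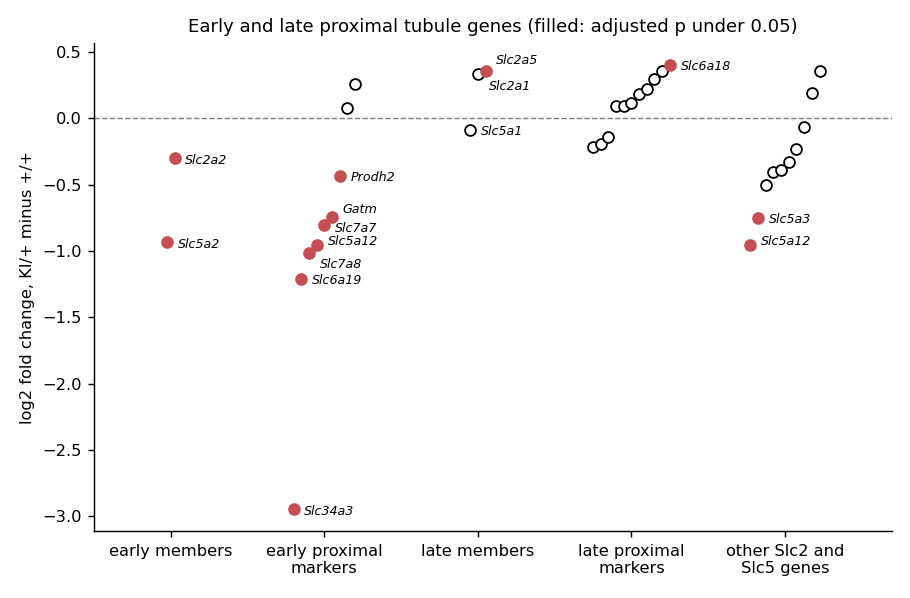
Log2 fold change, KI/+ minus +/+ (y axis), for the early and late sugar carriers, early and late proximal tubule markers and other genes of the Slc2 and Slc5 families (x axis), 1 point per gene, filled and named where the adjusted p was under 0.05, the sugar carriers always named. Early genes reach down to -2.95 for Slc34a3, and late genes lie between -0.22 and 0.40.

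Markers of other segments were read in the same way. Of 10 markers of the loop and distal nephron 4 fell, among them Umod at -1.0, Slc12a3 at -1.20 and Slc4a1 at -0.59. The median log2 fold change of the list was -0.15, with 4 genes above 0 and 6 below. The whole list summed to 31690 to 41073 in +/+ and 17111 to 24183 in KI/+. Umod was the largest part of this sum, with means of 22917 in +/+ and 11569 in KI/+. Slc12a1 stood at -0.22 and did not pass (limma, adjusted p = 0.438). Of 9 markers of the whole proximal tubule Slc13a3 rose, at 0.55, and Dab2 fell, at -0.35. Of 5 injury markers tested, Lcn2 rose, from 7.5 to 10.04 normalized counts over the +/+ mice to 18.8 to 73.0 over the KI/+ mice, and Spp1 fell, at -0.53 (limma, adjusted p = 0.0245), with a median log2 fold change of 0.02 over the list. Of 5 endothelial markers 0 passed by limma, edgeR or DESeq2 (2 at an unadjusted p under 0.05), and of 4 leukocyte markers 0 passed by any of these tools (1 at an unadjusted p under 0.05). The part of these genes in the result for the sugar carriers was not tested.

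Of the 10 other Slc2 and Slc5 genes tested, 2 fell and none rose, with a median log2 fold change of -0.36. These were Slc5a12, counted above among early markers, and Slc5a3 (SMIT1), which takes up myo-inositol and is most known from the loop and medulla. Slc5a3 fell from 872 ± 45.9 to 532 ± 130 normalized counts (SD, n = 5 each), at -0.75 (limma, adjusted p = 0.00398), and did not overlap between genotypes. Slc2a8 (GLUT8), a carrier of internal membranes, had 61.1 to 75.6 normalized counts in +/+ and 42.5 to 54.8 in KI/+, which did not overlap, at -0.51 just outside the threshold (adjusted p = 0.0517). Slc5a8, a lactate and short fatty acid carrier of the late tubule, stood at 0.36 (adjusted p = 0.0578). Slc2a4 (GLUT4), the insulin-regulated carrier, stood at -0.33 (adjusted p = 0.245).

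Among 9 other sugar carriers tested, Slc37a4, which brings glucose 6-phosphate into the endoplasmic reticulum, rose at 0.32 (limma, adjusted p = 0.0356). Mfsd4b5, a sodium-dependent sugar carrier of the rodent kidney, rose from 4689 ± 108 to 6046 ± 837 normalized counts (SD, n = 5 each), at 0.36 (adjusted p = 0.0354), and was more abundant than each of the 9 genes described above. Mfsd4a, from the same family, fell from 341 ± 35.5 to 144 ± 30.7, at -1.26 (adjusted p = 2.22e-05). These members of 1 family thus moved in both directions.

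Of 11 genes for the sodium pump, its potassium channel partners and the scaffolds and exchangers near SGLT2, 1 passed, Kcne1, a potassium channel subunit that accompanies sodium-coupled uptake, which rose from 72.3 ± 15.9 to 133 ± 30.1 normalized counts at 0.87 (limma, adjusted p = 0.00893). Atp1b1, the beta subunit of the sodium pump on which these carriers depend, stood at -0.02 (adjusted p = 0.962). Of 10 transcription factors of the proximal tubule, Maf fell at -0.64 (adjusted p = 0.00332) and Cebpa rose at 0.60 (adjusted p = 0.0384), while Hnf4a stood at 0.06 (adjusted p = 0.853).

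Enzymes that use the carried sugars did not pass, 0 of 9 by limma, edgeR or DESeq2 and 3 at an unadjusted p under 0.05 (limma). The log2 fold change was above 0 for 8 of these 9 genes, with a median of 0.14. Among them was Miox, which degrades inositol, at 0.17 (adjusted p = 0.593). Of 7 urate genes, Slc22a6, an organic anion carrier, rose at 0.52 (limma, adjusted p = 0.00104), and Slc22a12, the urate exchanger URAT1, stood at 0.24 (adjusted p = 0.396). All 7 had a log2 fold change above 0, with a median of 0.22.

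The genes whose spread between mice was most like that of each carrier were found by the Pearson correlation of log2(normalized count + 1) over the 10 mice after each genotype's mean was taken off, among 9135 genes with a mean of at least 50. They are given as a description, with no test. For Slc5a2 these were Mocs1 (r = 0.95, Spearman's rho = 0.81), Fam43a (r = 0.94, rho = 0.85) and Stk32b (r = 0.94, rho = 0.81). None of these 3 genes passed between genotypes by limma. For Pdzk1ip1 they were Ankrd40 (r = 0.97, rho = 0.99), Borcs8 (r = 0.93, rho = 0.93) and Ltbp4 (r = 0.93, rho = 0.87). For Slc2a2 they included the immunoglobulin genes Igha (r = 0.91, rho = 0.88) and Igkc (r = 0.89, rho = 0.90). For Slc2a5 they were Sestd1 (r = 0.94, rho = 0.85), Cyfip2 (r = 0.93, rho = 0.90) and 1700029J07Rik (r = 0.91, rho = 0.98). Between genotypes Igkc rose, at 1.30 (limma, adjusted p = 0.0390), and Cyfip2 fell, at -0.67 (limma, adjusted p = 0.00148). No list held another of the 9 genes.

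The same measure for the remaining 5 genes gave Arrdc1 for Slc5a1 (r = 0.96, rho = 0.95), Rnd2 for Slc5a10 (r = 0.95, rho = 0.92), Trpv4 for Slc5a11 (r = 0.96, rho = 0.95), Lss for Slc2a1 (r = 0.98, rho = 0.94) and Bdh1 for Slc2a9 (r = 0.96, rho = 0.85) at the head of each list. The next were Ppt2 and Hsd3b2 for Slc5a1, Slco1a6 and Spink1 for Slc5a10, Mapt and Hadha for Slc5a11, Aco1 and Atp5pb for Slc2a1, and Slc22a28 and Agps for Slc2a9. Of the like genes of these 5, only Hsd3b2 passed between genotypes, at -0.67 (limma, adjusted p = 0.00390).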

How the data were processed

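QuantSeq 3′ libraries were made from whole kidneys of 5 +/+ and 5 KI/+ mice. Per the methods and the submitters' processing notes, the authors checked reads with FastQC 0.11.7, aligned them with TopHat2 2.0.10 (Bowtie 1.0.0, SAMtools 0.1.19) to GRCm39, and counted them per gene with HTSeq 0.6.1, using strand, on GENCODE vM26. The deposited table gives 1 signal value for each of 13837 genes in each kidney: the authors had divided its reads by the library's size factor. The lowest mean of a gene was 5.64. After multiplying by the size factor, 100% of the values in each library were whole within 0.01 reads. Of the value columns, 0 matched no mouse.

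The fit was limma 3.58.1 (R 4.3.3) on log2(value + 1), two-sided, with eBayes moderation towards a mean-variance trend and Benjamini-Hochberg adjustment over 13197 genes. Fold changes on this scale understate those of low genes. On the recovered reads, edgeR 4.0.16 called 480 genes and DESeq2 1.42.0 called 648, against 487 by limma. Scripts were tested on simulated data. The mice were numbered in order of their records and not paired. Each was taken as a separate animal. The limma p-values set the genotype difference against the spread between mice, moderated towards the trend over all genes. The 9 genes and the lists were chosen with earlier results of these data known. Named beside the 9 genes are the genes of each list that passed, the 2 with the highest mean for lists of carriers, partners, regulators and proximal segments, and the 3 most alike in spread. Some genes that this rule names are not reported here. Slc2a8 and Slc2a4 were named after their values were seen. Lists of podocyte, erythroid and injury markers held Synpo (higher), Hba-a1 (lower), Lcn2 (higher) and Spp1 (lower) among the genes that passed. On GENCODE vM21, genes of the other strand overlap Slc5a2, Slc2a2, Slc2a1, Slc5a1 and Slc5a10, and the counting kept strands apart. On the same strand Mir1957a overlaps Slc2a1 and Gm15936 overlaps Slc5a1, and neither has values here. The alternatives were other pseudocounts (0.5 and 5), filters (none, or a mean of at least 50), scalings (TMM, quantile), limma without a trend, the count tests, a term for the run of library codes, each mouse left out in turn and, chosen after the data were seen, the second run alone and KI/+ replicates 1 and 5 left out.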

Additional observations from a re-analysis of the deposited data

Results flagged for a closer look

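Cfd, which encodes adipsin and is known from adipocytes, stood at 3504 normalized counts in KI/+ replicate 5, so far above the other 4 KI/+ mice that its gap to the nearest took up most of the range of the group. Chance alone gives such a gap in about 1 in 20 groups, and 22 groups were checked. In the same kidney Slc5a2 was at its lowest, 522, and Slc5a10 at 585, and the part of adipose tissue in these values was not tested.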

How the results depend on the processing

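Slc5a2 and Pdzk1ip1 passed in each of the 10 fits without 1 mouse and in each of the 12 other alternatives. Slc2a2 and Slc2a5 each passed in 2 of 10 and 10 of 12, and no member that missed the threshold crossed it. Slc5a11 turned from -0.08 to 0.01 in the fit without KI/+ replicate 4. Slc2a9 turned from 0.01 to between -0.02 and -0.01 without +/+ replicate 3 or 4 or KI/+ replicate 3 or 4. Neither gene passed in these fits. The 487 genes that passed became 291 (103 higher, 188 lower) without the trend, 832 with a term for the run of library codes, and 295 to 466 with 1 mouse left out. The 4 of the 9 genes that passed became 2 without the trend, 2 in the second run of library codes alone, and 2 to 4 with 1 mouse left out. The cause was not tested, other than that fewer mice were fitted where mice were left out. Without the trend the adjusted p was 0.131 for Slc2a2 and 0.115 for Slc2a5. Slc2a1 came nearest to the threshold with a term for the run of library codes, at 0.41 (limma, adjusted p = 0.0661). The early against late differences, computed without each of the 10 mice and in 6 other alternatives (pseudocounts, scalings, the second run alone, and KI/+ replicates 1 and 5 left out), kept their sign in these. No paired analysis was possible because the labels carry no replicate numbers. With 1 KI/+ mouse in the first run of library codes, no within-run value was computed for it. With 5 mice a group, the interval for Slc5a1, -0.36 to 0.18, leaves smaller changes undetectable.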
